A study of Arabidopsis thaliana with 9 samples.

Results

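WRKY transcription factors were examined in heated seedlings of Arabidopsis thaliana that carry normal, raised or very low levels of the splicing factor SR45a. Members are the genes whose description in the deposited gene tables contains the word WRKY and whose raw counts sum to 45 or more over the 9 libraries. The description matched 69 of the 27218 genes in the tables, and 54 of these reached the count minimum. Of the 15 that did not, 5 had no count in any library (WRKY10, WRKY62, WRKY66, WRKY71 and AT3G32090), and the highest sum was 35 counts (WRKY28). A further filter on low counts left 50 members in the tests, and WRKY34, WRKY43, WRKY54 and WRKY74 were left out of them. A member had to reach the filter's count level in at least 3 libraries of any genotype, so the 50 are not the whole family.

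WRKY proteins bind DNA through a domain that opens with the conserved amino acids WRKYGQK and ends in a zinc finger, and their usual binding site is the W-box, a short motif with the core TTGAC. They are sorted into groups I, IIa to IIe and III by the number of domains and the form of the zinc finger. Many act in immunity, where they lie downstream of MAP kinases and salicylic acid, and others act in leaf senescence, phosphate supply, root and trichome development and heat tolerance.

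The genotypes were wild type (WT), lines with overexpression of the SR45a-1a form of SR45a (SR45a-1a-OE, below also the overexpressor) and the sr45a mutant, with 3 libraries each. All were seedlings, 2 weeks old, raised on ½MS medium under LD conditions, and all spent 3 h at 45 °C before total RNA was taken. Every group was therefore heated, and the response to heat itself was not measured. The labels give neither the promoter of the overexpression construct, nor the allele of sr45a, nor whether replicates 1 to 3 are separate lines or repeated samples, so every p-value here rests on a spread among libraries that may be only technical.

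The domain letters were checked in the coding sequence of each member, since a description can mention WRKY for other reasons. In the RefSeq annotation of TAIR10.1, the build of all coordinates and sequences here, 41 members had 1 stretch in frame that codes for WRKYGQK or WRKYGKK, 11 members had 2, and these 11 are the members of group I. AT1G64140 and AT4G31805 had 0, so the data give no WRKY signature for them, and they are called by their locus below. The stretches of the 10 members that passed a test, and of WRKY50, are shown because they are the part of the gene that makes each one a WRKY gene. Each is 21 bases long, reads 5′ to 3′ in the coding sense, and has the codon for the residue before the last in capitals, which is glutamine in 10 of them and lysine in WRKY50.
WRKY72: tggagaaaatatggaCAAaag
WRKY47: tggagaaaatacggtCAGaaa
WRKY29: tggcgtaaatacgggCAGaaa
WRKY75: tggaggaaatatggcCAAaag
WRKY45: tggaggaagtacggcCAAaaa
WRKY23: tggcgaaaatatggtCAAaaa
WRKY24: tggcgaaaatatgggCAGaaa
WRKY57: tggcgtaaatatggaCAAaaa
WRKY18: tggaggaaatacggaCAAaag
WRKY38: tggaggaaatatggtCAAaag
WRKY50: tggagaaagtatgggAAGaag
The stretch of WRKY72 lies at chr5:4905628-4905648 on the plus strand, and that of WRKY50 at chr5:9147579-9147599 on the minus strand.

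Depth was 18036195 to 21864604 gene counts per library, of which members took 0.061–0.0736%. SR45a itself stood at 401–433 CPM (counts scaled to a common library size with TMM factors) in WT, 1010–1173 in the overexpressor and 1.9–7.27 in sr45a, the order that the labels give. On the first principal component of all tested genes, which held 39.7% of the variance, replicate 3 of SR45a-1a-OE scored 13.5 against 41.5 and 40.6 in the other two, and replicate 3 of sr45a scored 5.45 against −21.6 and −18.6. The WT libraries scored −22.48 to −18.25, so this component separates SR45a-1a-OE from the other genotypes. Both replicates 3 were picked from these data by their place on it. Counts of members, and members whose call changed, are also given without both of these libraries. Such values describe the data and are no separate test. The 6 leaf markers summed to 30210–34955 CPM in WT and 34982–39409 CPM in the other genotypes, and none of the leaf, root or seed markers was at 0 in all libraries. In bulk tissue fewer cells of a type and less RNA per cell cannot be told apart.

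Levels of the members, compared per length in FPKM, ran from a mean of 0.149 (WRKY34) to 63.7 (AT1G64140) over the 9 libraries. The mean over 9 libraries was 50 FPKM or more for 1 member, 10 to 50 for 9, 1 to 10 for 32 and under 1 for 12. The first in the order was AT1G64140, which has no WRKY signature, at 63.7 ± 6.13 FPKM in WT (SD, n = 3), 70.3 ± 9.004 in the overexpressor and 57.1 ± 5.14 in sr45a. Of the genes with a WRKY signature WRKY15 was the highest, at 25.1 ± 2.83, 25.2 ± 5.42 and 28.3 ± 2.86 FPKM in the same order of genotypes. WRKY7 (17.3 FPKM over all libraries), WRKY25 (16.1), WRKY65 (15.995), WRKY11 (15.2), WRKY39 (13.2) and WRKY32 (12.6) followed. WRKY7, WRKY25, WRKY65 and WRKY11 differed from each other by less than the SD of WRKY11 in SR45a-1a-OE, 4.36 FPKM, and have no firm order. WRKY7, WRKY11, WRKY15 and WRKY39 belong to group IId, whose members bind calmodulin.

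**Figure D1:**
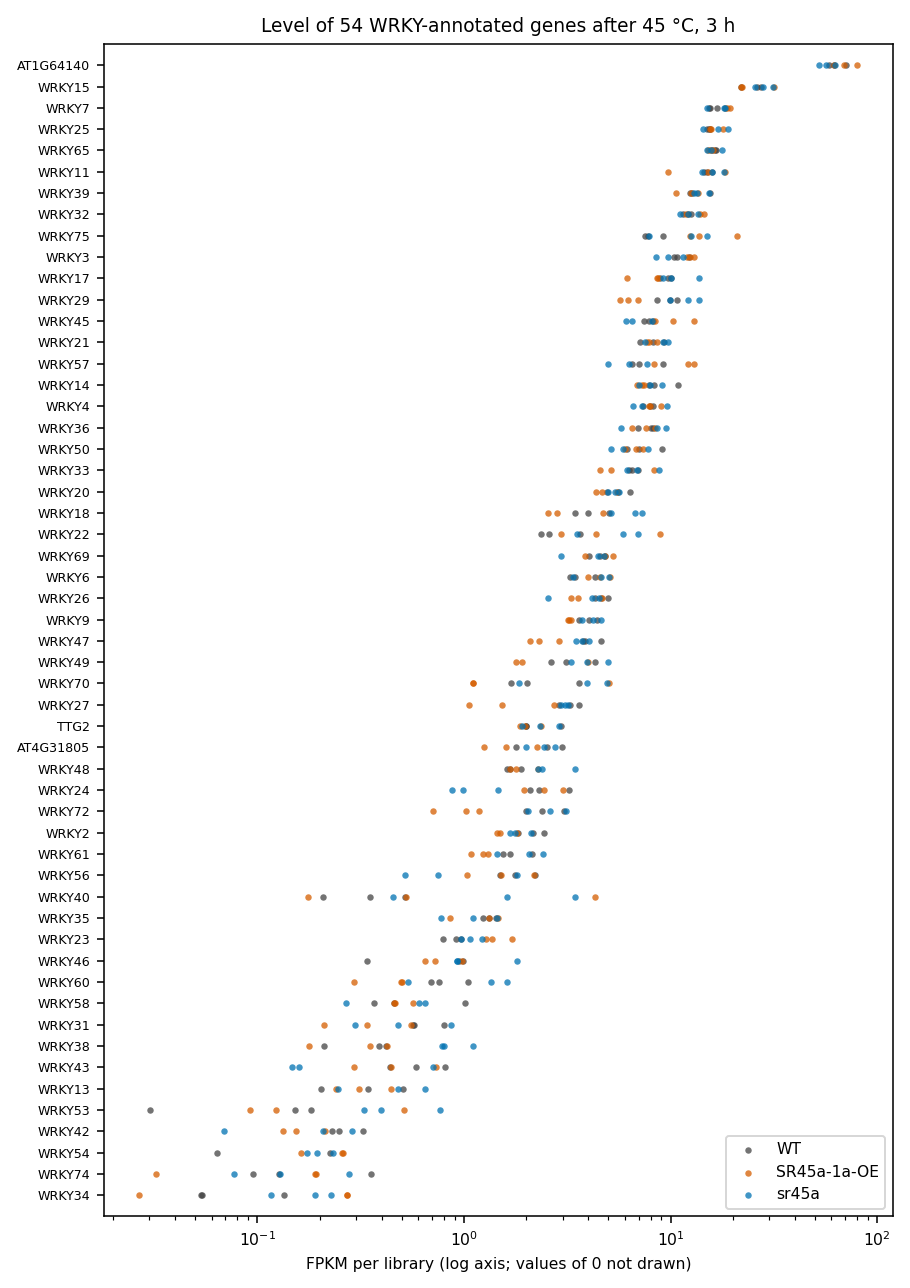
FPKM of each of the 54 members in each of the 9 libraries on a log axis, ordered by mean. AT1G64140 lies above 50 FPKM and WRKY15 leads the genes with a WRKY signature, while the lowest members lie under 1 FPKM and scatter widely within a genotype.

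SR45a-1a-OE against WT asks which members differ when SR45a is raised. WRKY72, WRKY47 and WRKY29 fell, and WRKY75 and WRKY23 rose. These are 5 of the 50 tested members, or 10%, where 15.3% of all 20103 tested genes passed (edgeR quasi-likelihood test, Benjamini-Hochberg adjusted p under 0.05), so the share of members was not above that of genes at large. The 2 that rose are set against 6.76% of all genes that rose, and the 3 that fell against 8.59%. The median log2 fold change was −0.04 for members and 0.01 for all genes. Groups did not overlap for 19 members (38%), 7 of them higher and 12 lower, against 35.5% of all genes. The largest differences that did not pass were those of WRKY40 at 2.24 (SE 1.01, adjusted p = 0.151) and WRKY53 at 1.03 (SE 0.76, adjusted p = 0.386).

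WRKY72, a group IIb gene known for basal defence, lies at chr5:4904290-4907094 on the plus strand. It was at 5.98, 4.78 and 4.13 CPM in WT, 1.54, 2.41 and 2.09 in the overexpressor and 4.16, 6.03 and 5.28 in sr45a. All 3 SR45a-1a-OE libraries were below every other library. Its log2 fold change was −1.30 with SE 0.23 and adjusted p = 0.00589, a level 2.46-fold lower, and the call held under all 19 alternatives run.

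WRKY47 (chr4:744804-748554, plus strand), of the same group, was at 8.68, 7.31 and 7.66 CPM in WT, 4.82, 4.07 and 5.66 in the overexpressor and 7.31, 6.46 and 7.81 in sr45a. Again no SR45a-1a-OE library reached the lowest of the others. The log2 fold change was −0.70, with SE 0.16 and adjusted p = 0.0153, and the adjusted p was 0.0606 without WT replicate 1 and 0.0624 without SR45a-1a-OE replicate 1. In group IIb, singled out after its values were seen, SR45a-1a-OE lay wholly below WT for 6 of 8 tested members and wholly above it for 1, where this held for 18.7% and 16.9% of all genes. Of these 7 members only WRKY72 and WRKY47 passed the test. The other lower ones, WRKY9, WRKY31, WRKY42 and WRKY61, had log2 fold changes from −0.76 to −0.26, and WRKY6 was the higher one at 0.35 (adjusted p = 0.16).

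WRKY29 and WRKY22 are known as targets of the MAP kinase cascade that flagellin sets off. WRKY29 (chr4:12291632-12293367, plus strand) was at 14.4, 11.95 and 14.1 CPM in WT, 9.25, 7.91 and 9.84 in the overexpressor and 13.8, 18.2 and 16.8 in sr45a. The SR45a-1a-OE libraries were the 3 lowest of the 9. The log2 fold change was −0.58 with SE 0.14 and adjusted p = 0.0198, and adjusted p was 0.0603 to 0.0713 without WT replicate 1 or 3 or without SR45a-1a-OE replicate 1 or 2. WRKY22 had a log2 fold change in the other direction, 0.95, that did not pass (SE 0.37, adjusted p = 0.101). It passed in DESeq2 (0.95, adjusted p = 0.0497) and with the replicate number as a block (0.86, adjusted p = 0.0315), and without SR45a-1a-OE replicate 3 and sr45a replicate 3 its log2 fold change was 0.39 (adjusted p = 0.331).

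WRKY75 acts in phosphate starvation, root hair growth and leaf senescence. The gene (chr5:4149738-4151201, minus strand) was at 5.89, 6.25 and 7.52 CPM in WT, 18.1, 9.99 and 11.3 in the overexpressor and 6.34, 9.74 and 12.1 in sr45a. SR45a-1a-OE lay above all WT libraries, while sr45a spanned from WT levels to those of SR45a-1a-OE. It rose, with a log2 fold change of 0.999, SE 0.26 and adjusted p = 0.0244, to 13.1 ± 4.36 CPM from 6.56 ± 0.857. The adjusted p was 0.0838 without WT replicate 1, 0.0887 without WT replicate 2 and 0.107 without SR45a-1a-OE replicate 1. The 8 root markers summed to 166–183 CPM in WT and 128–221 CPM in the overexpressor. Single markers moved both ways: of 7 tested, 1 rose and 2 fell in SR45a-1a-OE against WT, where 6.76% and 8.59% of all genes did. The part of these markers in the result for WRKY75 was not tested.

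WRKY23 (chr2:19404802-19407098, minus strand), an auxin-responsive gene of embryo and root development, was at 1.46, 1.84 and 1.76 CPM in WT, 2.78, 3.24 and 2.46 in the overexpressor and 2.03, 2.22 and 1.84 in sr45a. The genotypes did not overlap, and WT and sr45a nearly met. It rose in the overexpressor (log2 fold change 0.74, SE 0.21, adjusted p = 0.0356). The adjusted p was between 0.0512 and 0.123 when WT replicate 1, 2 or 3, SR45a-1a-OE replicate 1 or 2, or sr45a replicate 1 was left out.

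**Figure D2:**
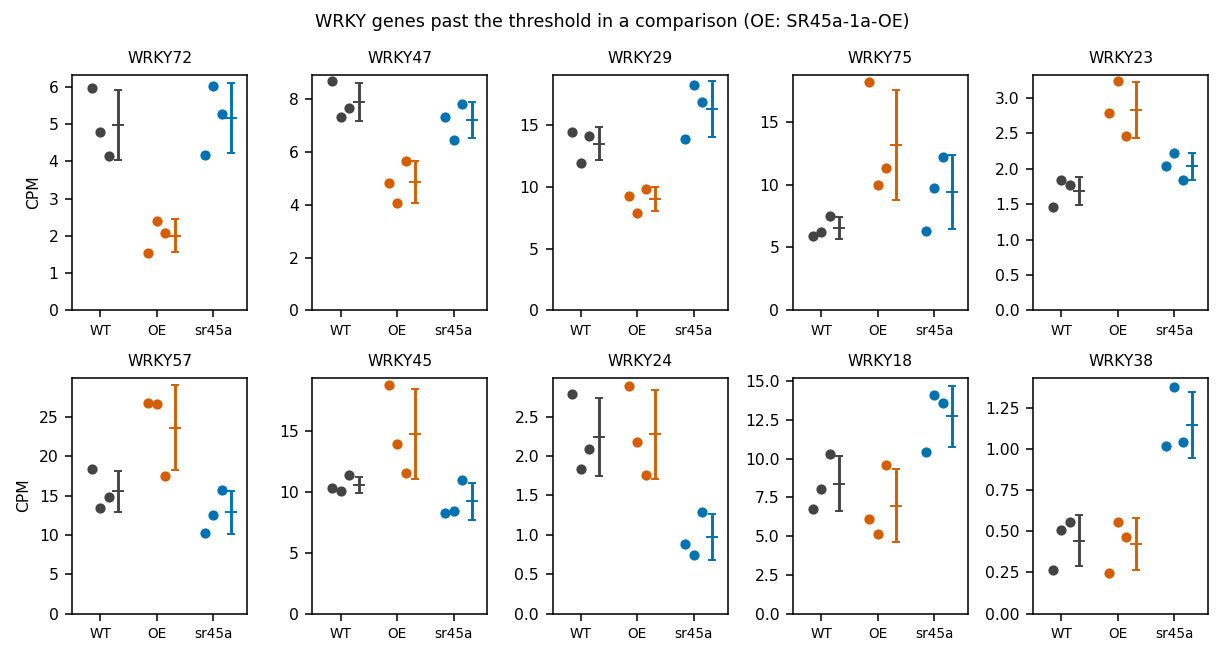
CPM of the 10 members that passed in at least 1 comparison, by genotype; points are libraries 1 to 3, and bars are mean ± SD (n = 3). WRKY72, WRKY47 and WRKY29 are lowest in SR45a-1a-OE, and the sr45a libraries lie apart for WRKY38 and WRKY24.

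SR45a-1a-OE against sr45a sets the 2 levels of SR45a farthest from each other. Here 7 of 50 members passed, or 14% against 7.26% of all genes, 3 higher (2.81% of all genes) and 4 lower (4.45%). Groups did not overlap for 17 members (34%, against 25.2% of all genes). WRKY72 was lower here (log2 fold change −1.35, SE 0.23, adjusted p = 0.0076), and so was WRKY29 (−0.85, SE 0.14, adjusted p = 0.00706). The comparison shares its SR45a-1a-OE libraries with the one against WT.

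WRKY57 is known from drought tolerance and from jasmonate-induced leaf senescence. The gene (chr1:26054275-26058383, minus strand) was at 18.4, 13.4 and 14.8 CPM in WT, 26.8, 26.7 and 17.4 in the overexpressor and 10.3, 12.5 and 15.8 in sr45a. SR45a-1a-OE replicate 3 lay within the range of WT, and all SR45a-1a-OE libraries lay above sr45a. The log2 fold change was 0.88, with SE 0.20 and adjusted p = 0.025, and adjusted p was 0.0595 to 0.13 without SR45a-1a-OE replicate 1 or 2 or sr45a replicate 1 or 2.

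WRKY45 (chr3:325952-327412, minus strand), which activates a phosphate transporter gene and promotes senescence, was at 10.3, 10.07 and 11.3 CPM in WT, 18.8, 13.9 and 11.5 in the overexpressor and 8.23, 8.42 and 10.9 in sr45a. Every SR45a-1a-OE library was above every other one, the lowest of them by a small margin. The log2 fold change against sr45a was 0.68 (SE 0.18, adjusted p = 0.0439), and against WT it was 0.48 and did not pass (adjusted p = 0.0896). Leaving out any 1 library other than SR45a-1a-OE replicate 3 and sr45a replicate 3 ended the call, with adjusted p from 0.0606 to 0.193.

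WRKY24 (chr5:16624157-16625977, plus strand), a group IIc gene, stood out for its low level in sr45a: 2.79, 1.84 and 2.09 CPM in WT, 2.88, 2.17 and 1.76 in the overexpressor and 0.879, 0.741 and 1.29 in sr45a. WT and SR45a-1a-OE overlapped, and all 3 sr45a libraries were below both. SR45a-1a-OE exceeded sr45a (log2 fold change 1.22, SE 0.30, adjusted p = 0.0336). The adjusted p was 0.0517 to 0.15 when WT replicate 2 or 3, SR45a-1a-OE replicate 1 or 2, or sr45a replicate 1 or 2 was left out. Against WT the log2 fold change of sr45a was −1.20 (SE 0.30), with adjusted p = 0.0773 in edgeR and 0.0255 in DESeq2.

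WRKY18 (chr4:15382777-15385100, plus strand), which with WRKY40 and WRKY60 forms group IIa and tempers basal defence, was at 6.78, 8.04 and 10.3 CPM in WT, 6.12, 5.14 and 9.61 in the overexpressor and 10.5, 14.1 and 13.6 in sr45a. All sr45a libraries were above the other 6. SR45a-1a-OE was below sr45a (log2 fold change −0.87, SE 0.23, adjusted p = 0.0436). The adjusted p was 0.0675 to 0.176 when WT replicate 2, SR45a-1a-OE replicate 1 or 2, or sr45a replicate 1, 2 or 3 was left out. WRKY60 had −1.36 in this comparison and did not pass (SE 0.41, adjusted p = 0.0658), nor did WRKY53 at −0.94 (SE 0.62, adjusted p = 0.372). Both passed without SR45a-1a-OE replicate 3 and sr45a replicate 3, WRKY60 at −1.80 (adjusted p = 0.00914) and WRKY53 at −2.29 (adjusted p = 0.0362), and WRKY60 also passed in DESeq2 (−1.37, adjusted p = 0.0322).

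WRKY38 (chr5:7495455-7496990, minus strand), a group III gene that limits defence in the salicylic acid pathway, was at 0.266, 0.506 and 0.557 CPM in WT, 0.249, 0.555 and 0.464 in the overexpressor and 1.02, 1.38 and 1.05 in sr45a. Each sr45a library was above every library of the other genotypes. The gene had 125 counts over all 9 libraries, so counting error weighs on it. The log2 fold change was −1.41 (SE 0.38, adjusted p = 0.0442), and leaving out any 1 library other than WT replicate 1 and sr45a replicate 3 ended the call, with adjusted p from 0.0523 to 0.176.

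sr45a against WT asks what the loss of SR45a changes, and no member passed. Of all genes 1.62% did, 0.861% higher and 0.761% lower. The 4 seed storage markers all rose in this comparison, with summed levels of 0.557–0.919 CPM in WT and 20.7–35.7 in sr45a (1.11–6.34 in SR45a-1a-OE). The 8 root markers summed to 166–183 CPM in WT and 107–137 in sr45a, and of the 7 tested 1 fell and 0 rose. The part of either marker list in the values of sr45a was not tested. At an unadjusted p under 0.05 the edgeR test gave 7 of 50 members, against 3158 of all 20103 tested genes, so the members did not stand out. DESeq2 gave 1 member with an adjusted p under 0.05, WRKY24. Groups did not overlap for 6 members (12%, against 24.1% of all genes): WRKY18, WRKY23, WRKY38, WRKY48 and WRKY53 were higher and WRKY24 lower. The largest differences were those of WRKY40 at 2.29 (SE 1.01, adjusted p = 0.302) and of WRKY53 at 1.97 (SE 0.69, adjusted p = 0.196). WRKY53, a regulator of leaf senescence, stood at 0.0443, 0.23 and 0.279 CPM in WT and 0.601, 1.11 and 0.498 in sr45a, from 80 counts in all.

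**Figure D3:**
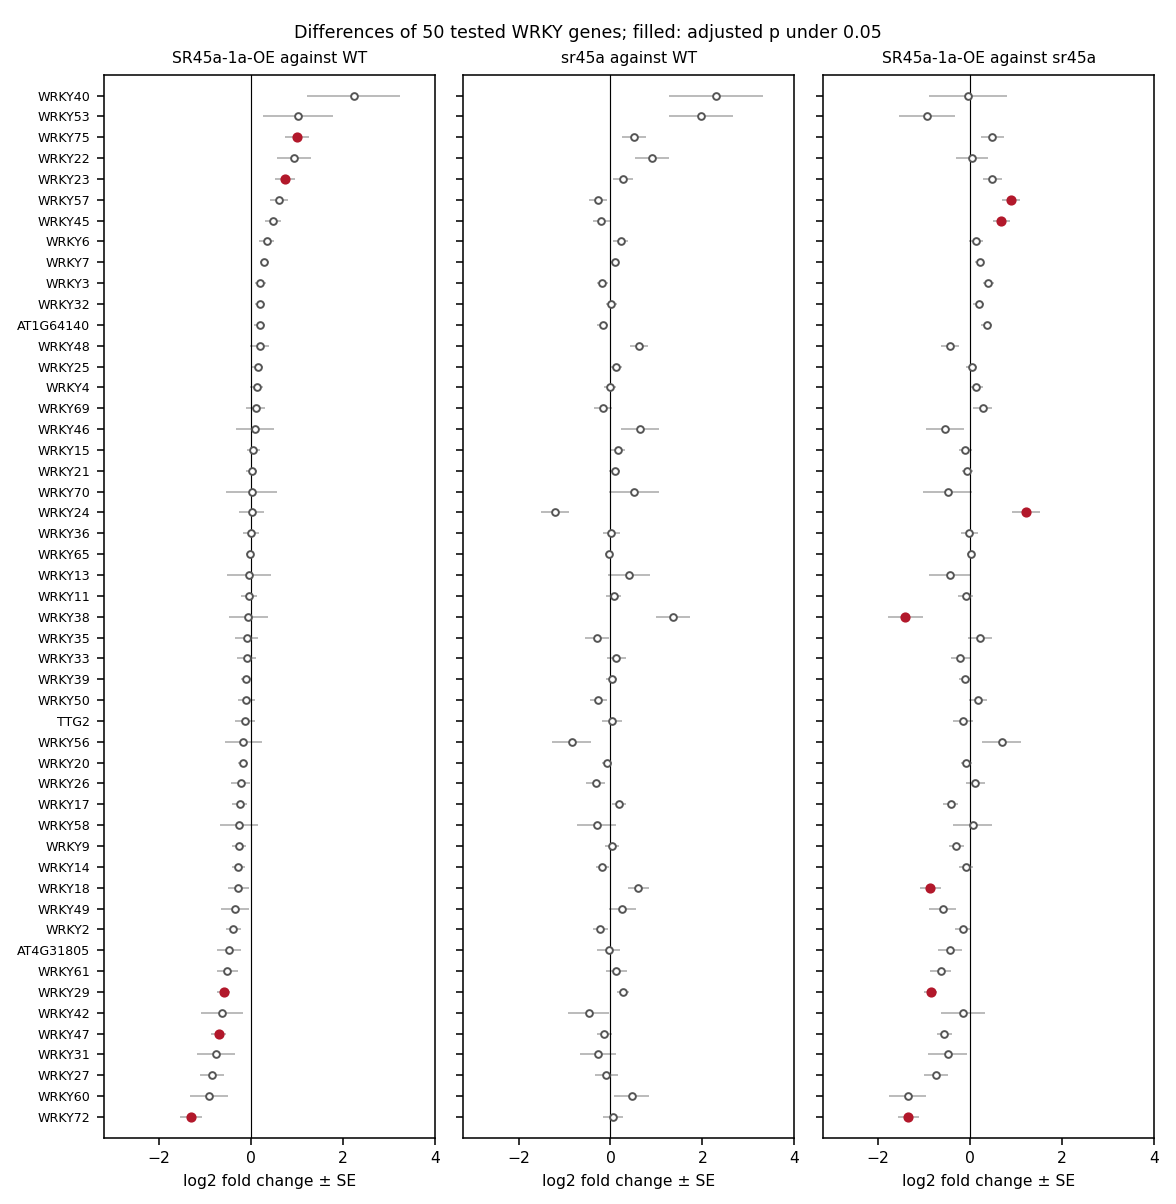
log2 fold change ± SE of the 50 tested members in the 3 comparisons, ordered by SR45a-1a-OE against WT; filled points have an adjusted p under 0.05 in edgeR. The panels hold 5, 0 and 7 filled points, and the widest bars belong to WRKY40.

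The counts of members were higher without both libraries that stood apart, and so were the shares of all genes that passed. The share went from 15.3% to 22.3% in SR45a-1a-OE against WT and from 7.26% to 20.5% in SR45a-1a-OE against sr45a. Both libraries were picked from these data on a component that separates SR45a-1a-OE from the other genotypes, so these counts are no separate test. Without SR45a-1a-OE replicate 3 and sr45a replicate 3, 11 members passed in SR45a-1a-OE against WT (22.3% of all genes), 1 in sr45a against WT (1.8%) and 17 in SR45a-1a-OE against sr45a (20.5%), of 51 members tested, WRKY34 among them. The 5 members that passed against WT with all libraries passed here too. The other 6 were WRKY45 (0.63, adjusted p = 0.0129), WRKY57 (0.78, adjusted p = 0.00379), WRKY33, WRKY27, WRKY34 and WRKY49. Of these 6 only WRKY27 (−0.84, adjusted p = 0.0216) and WRKY57 (0.60, adjusted p = 0.0296) also passed in DESeq2 with all libraries. WRKY24 passed in sr45a against WT with a log2 fold change of −1.46 (adjusted p = 0.0484). Members that passed in SR45a-1a-OE against sr45a here and not with all libraries were WRKY3, WRKY4, WRKY32, WRKY56 and AT1G64140, which were higher, and WRKY27, WRKY47, WRKY49, WRKY53, WRKY60 and WRKY70, which were lower. WRKY38 was the 1 of the 7 members of SR45a-1a-OE against sr45a that did not pass (adjusted p = 0.0507).

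WRKY25, WRKY26, WRKY33 and WRKY39 are known to act in heat tolerance, and none of them passed in any comparison. WRKY25 was at 26.5, 26.5 and 27.8 CPM in WT, 34.1, 27.4 and 28.3 in the overexpressor and 25.6, 28.7 and 33.6 in sr45a. WRKY33, the regulator of camalexin synthesis, was at 12.8, 12.6 and 14.4 CPM in WT, 9.84, 10.4 and 17.1 in the overexpressor and 12.5, 13.3 and 17.8 in sr45a. For both genes the genotypes overlapped, and the replicates that stood apart were the highest WRKY33 libraries of their groups. Without these 2 libraries WRKY33 passed in SR45a-1a-OE against WT, at −0.39 (adjusted p = 0.0482), against −0.09 with them (SE 0.21, adjusted p = 0.801). WRKY26 had log2 fold changes of −0.22 and −0.33 against WT in SR45a-1a-OE and sr45a, and WRKY39 of −0.09 and 0.03, with SE of 0.12 to 0.21. For WRKY25, WRKY26 and WRKY39 no difference was detectable at this replication, with or without the 2 libraries.

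Some members varied more among replicates than between genotypes. The highest library of a genotype was a median of 1.26 times the lowest over members in WT, and 1.44 times in both SR45a-1a-OE and sr45a. Among members with a mean of 1 CPM or more, a limit set after the values were seen, WRKY40 had the widest range. It was at 0.266, 0.46 and 0.697 CPM in WT, 0.249, 0.694 and 5.75 in the overexpressor and 0.601, 4.34 and 2.14 in sr45a. The 23.1-fold range within SR45a-1a-OE came from replicate 3, and in sr45a replicate 1 was near WT. Without SR45a-1a-OE replicate 3 and sr45a replicate 3 the log2 fold change of WRKY40 against WT was 0.0151 in SR45a-1a-OE (adjusted p = 0.993) and 2.35 in sr45a (adjusted p = 0.142), neither of which passed.

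WRKY70, which favours salicylic acid over jasmonate responses, was at 2.39, 2.94 and 5.39 CPM in WT, 1.74, 1.62 and 7.47 in the overexpressor and 2.73, 6.88 and 5.77 in sr45a. WRKY22 reached 11.9 CPM in SR45a-1a-OE replicate 3 against 4.18 and 5.74 in the other two. For WRKY40, WRKY70 and WRKY22 the highest SR45a-1a-OE library was the one that stood apart. WRKY46, WRKY56 and WRKY60 had ranges of 2.88- to 3.44-fold within a genotype.

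**Figure D4:**
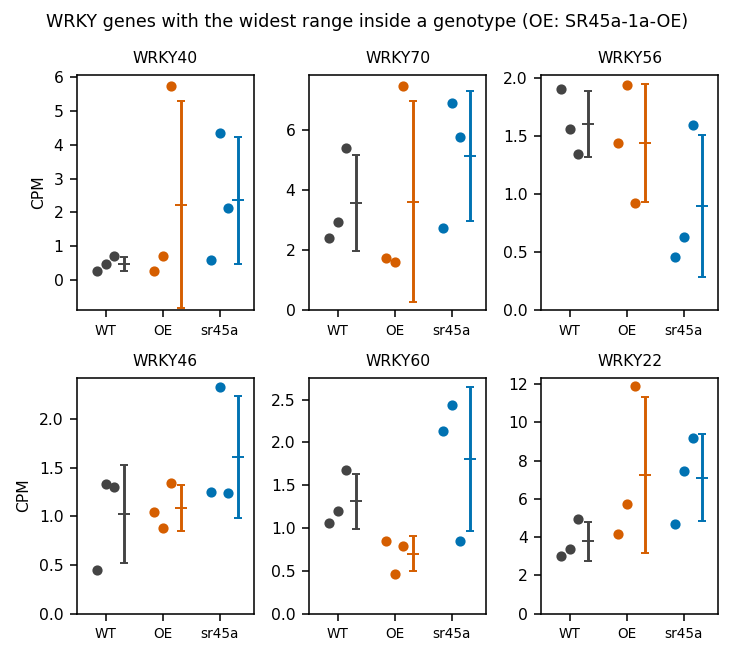
CPM of the 6 members with the widest range inside a genotype among those with a mean of at least 1 CPM; points are libraries 1 to 3 and bars are mean ± SD (n = 3), which reach below 0 where the SD exceeds the mean. WRKY40 in SR45a-1a-OE runs from 0.249 to 5.75 CPM.

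The groups of the family differed in their counts, which describe these libraries and carry no test. In SR45a-1a-OE against WT group IIb had a median log2 fold change of −0.57 over 8 members and group IIc 0.11 over 10. Group IIc had 2 higher calls of 10 against WT and 3 of 10 against sr45a, where 6.76% and 2.81% of all genes were higher, and its median against sr45a was 0.48. In group I none of 10 tested members passed, against 15.3% of all genes in SR45a-1a-OE against WT, 1.62% in sr45a against WT and 7.26% in SR45a-1a-OE against sr45a. In sr45a against WT all 3 members of group IIa, all 4 tested members of group III and all 6 tested members of group IId had positive log2 fold changes. The medians were 0.60, 1.002 and 0.09 in this order. Of all genes 49.9% were above 0, and none of these members passed.

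Other genes of the pathways in which WRKY factors act were read from the same fit, in which 6.76% of all genes rose and 8.59% fell in SR45a-1a-OE against WT. The MAP kinase and VQ lists, each with 10% called, were below the 15.3% of all genes. Of 10 tested genes of the MAP kinase cascade, 1 fell in SR45a-1a-OE against WT, the kinase kinase gene MKK2 (−0.50, SE 0.09, adjusted p = 0.00687), and it was also lower against sr45a (−0.46, adjusted p = 0.0149). VQ proteins bind WRKY factors, and of 20 tested VQ genes 2 rose in SR45a-1a-OE, AT1G17147 by 1.27 (adjusted p = 0.018) and AT3G58000 by 1.13 (adjusted p = 0.0388; 0.063 without the 2 libraries that stood apart). Of 6 genes of indole and camalexin synthesis CYP79B3 rose (0.75, adjusted p = 0.0318). Of 9 tested genes of salicylic acid and defence, EDS5, the exporter of a salicylic acid precursor, rose by 0.65 (adjusted p = 0.043) and YLS9 fell by 0.59 (adjusted p = 0.0219).

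Of 7 tested senescence genes, SAG21 (0.63, adjusted p = 0.0118) and the chlorophyll breakdown gene NYE1 (0.43, adjusted p = 0.0475; 0.0776 without those 2 libraries) rose in SR45a-1a-OE and SEN1 had −0.85 (adjusted p = 0.0364). Of the 7 heat genes 4 rose there, and 6 did without those 2 libraries, when 10.7% of all genes rose. The 4 were the heat shock factor genes HSFA3 (1.12, adjusted p = 0.00335) and HSFA2 (0.84, adjusted p = 0.0316), and the zinc finger genes RHL41 (1.38, adjusted p = 0.00418) and STZ (1.66, adjusted p = 0.0198), also known as ZAT12 and ZAT10. HSFA3 and RHL41 were also higher in SR45a-1a-OE than in sr45a (0.84, adjusted p = 0.0135, and 0.88, adjusted p = 0.0313), and for RHL41 the adjusted p was 0.0632 without those 2 libraries. None of the 5 tested TTG2 partner genes passed in any comparison with all 9 libraries. In sr45a against WT no gene of the MAP kinase, VQ, indole and camalexin, salicylic acid, senescence, heat and TTG2 partner lists passed, where 1.62% of all genes did.

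Of 5 phosphate genes 1 rose and 2 fell in SR45a-1a-OE against WT, and 3 fell in sr45a against WT, where 0.761% of all genes fell. The 8 root markers summed to 166–183 CPM in WT, 128–221 CPM in the overexpressor and 107–137 CPM in sr45a. The sums hide markers that differ: of 7 tested, 1 rose and 2 fell in SR45a-1a-OE against WT, and 1 fell in sr45a against WT. The part of these markers in the values of the phosphate genes was not tested. The transporter gene PHT1;1, which WRKY45 activates, was at 147, 143 and 145 CPM in WT, 93.2, 95.1 and 69.2 in the overexpressor and 103, 86.4 and 80.3 in sr45a. WT was above both other genotypes, with log2 fold changes of −0.75 (adjusted p = 0.00605) and −0.68 (adjusted p = 0.0265), while WRKY45 had 0.48 and −0.20, and both comparisons share the WT libraries. PHT1;4 was lower in both as well (−1.02, adjusted p = 0.0142, and −1.62, adjusted p = 0.00563). SPX1, a phosphate sensor gene, was lower in sr45a than in WT (−1.18, adjusted p = 0.0079) and than in SR45a-1a-OE (the latter higher by 0.92, adjusted p = 0.0133), and PHR1, the regulator of phosphate starvation responses, was higher in SR45a-1a-OE (0.44, adjusted p = 0.0193).

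The 250 bases before the annotated start of each member were searched on both strands for TTGACC and TTGACT, the full W-box. It was present in 16 of 54 members (29.6%), against 28.4% of the same windows of 27443 protein-coding genes. In the 1000 bases before the start it was present in 41 members (75.9%) against 67.3%, and in at least 2 copies in 51.9% against 33.1%. The heat shock motif GAANNTTC was in 7.41% of member windows of 250 bases and in 9.55% of all. In windows of 1000 bases it was in 38.9% of members and in 33.2% of all. The windows of 3 members that passed in SR45a-1a-OE against WT and hold a W-box are shown, in the sense of the gene and with the W-box in capitals; those of WRKY47 and WRKY23 hold none.
WRKY72: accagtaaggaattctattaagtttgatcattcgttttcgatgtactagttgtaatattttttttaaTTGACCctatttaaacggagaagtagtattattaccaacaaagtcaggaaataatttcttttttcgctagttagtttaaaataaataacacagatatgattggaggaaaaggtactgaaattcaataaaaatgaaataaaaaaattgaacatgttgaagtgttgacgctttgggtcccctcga
WRKY29: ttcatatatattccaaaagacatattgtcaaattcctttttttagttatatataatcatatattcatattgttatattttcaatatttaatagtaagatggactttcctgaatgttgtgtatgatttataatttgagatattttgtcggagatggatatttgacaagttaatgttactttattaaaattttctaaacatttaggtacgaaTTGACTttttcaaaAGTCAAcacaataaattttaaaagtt
WRKY75: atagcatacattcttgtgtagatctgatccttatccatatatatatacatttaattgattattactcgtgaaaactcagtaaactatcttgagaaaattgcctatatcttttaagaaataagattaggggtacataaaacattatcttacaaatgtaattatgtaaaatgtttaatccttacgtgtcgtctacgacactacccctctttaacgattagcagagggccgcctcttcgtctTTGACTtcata
They lie at chr5:4904040-4904289 (plus strand), chr4:12291382-12291631 (plus strand) and chr5:4151202-4151451 (minus strand). WRKY29 holds a pair of W-boxes in opposite directions that begin 40 and 26 bases before the start, WRKY75 has one 11 bases before it and WRKY72 one 183 bases before it. A match is a description of the letters and not a site shown to be bound.

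Since SR45a is a splicing factor, the shares of each member's transcripts were compared as well. Of the 54 members 19 have 2 or more annotated transcripts, and 17 had at least 2 that could be tested. The transcript estimates can fall short of the gene level. The listed transcript of WRKY25 averaged 2.78 FPKM in WT, against 15.3 for the gene. That of WRKY50 was at 0 in all libraries, though the gene averaged 7.36 CPM. The usage test covers only what the transcript estimates hold. No member passed in any comparison (edgeR diffSpliceDGE, gene-level Simes p adjusted over 7893 genes), where 0.203%, 0.19% and 0.241% of genes passed. The smallest p among members belonged to WRKY39 in SR45a-1a-OE against WT (adjusted p = 1) and to WRKY43 in both comparisons with sr45a (adjusted p = 0.558 against WT and 0.629 against SR45a-1a-OE). WRKY72 had the next smallest p in SR45a-1a-OE against WT and against sr45a, with its second transcript at 96.5% in SR45a-1a-OE replicate 2 and at 16.4% or less in the other two.

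WRKY39 is described further because its transcript 2 lay apart in WT, a choice made after its values were seen. AT3G04670.2 took 1.36, 1.12 and 3.26% of the gene's estimate in WT, 12.4, 7.97 and 11.8% in the overexpressor and 9.98, 10.7 and 16.2% in sr45a. All 6 libraries of the altered genotypes were above WT, and they overlapped with each other. The main test did not pass, with adjusted p = 1 in the overexpressor and 0.8 in sr45a against WT. Of the alternatives only limma diffSplice on voom values passed, with adjusted p = 0.049 and 0.0203. Both comparisons use the same WT libraries.

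Transcript 2 keeps the last intron of transcript 1, 87 bases at chr3:1266678-1266764 on the minus strand, and its coding sequence ends inside it. The coding length is 993 bases in transcript 1 and 873 in transcript 2. The stretch from 10 bases before the intron to the stop codon in it is shown in the sense of the gene, at chr3:1266737-1266774, with the first 2 bases of the intron and the stop codon in capitals.
WRKY39: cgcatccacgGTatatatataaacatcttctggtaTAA
Gene-level WRKY39 was at 30.03 ± 3.15 CPM in WT, 28.2 ± 3.61 in the overexpressor and 30.6 ± 2.01 in sr45a, and the gene's level passed in no comparison.

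**Figure D5:**
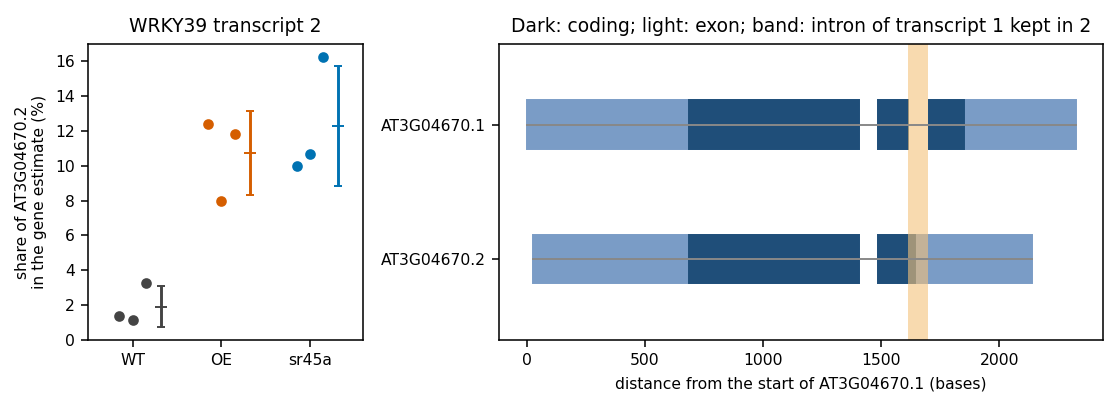
Left, share of transcript 2 in the estimate of WRKY39 by genotype (points are libraries, bars mean ± SD, n = 3). Right, both transcripts by distance from the start of transcript 1, with the intron that transcript 2 keeps as a band; WT lies between 1.12 and 3.26% and the other genotypes between 7.97 and 16.2%.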

How the data were processed

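RNA was sequenced from 9 libraries of whole heated seedlings, 3 per genotype. Per the labels' protocols, the authors read paired ends of 150 bp on an Illumina NovaSeq and cleaned the reads with fastp. The aligner, counting program, annotation and strand setting are not given in the sources used here. The authors deposited a raw count and an FPKM for each gene and an estimated count and an FPKM for each transcript, per the file headers. Groups follow the labels, and columns were matched to them by genotype and number. Gene coordinates equalled TAIR10.1 for 24891 of 24892 protein-coding genes compared and for all 54 members.

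Genes were tested with edgeR 4.0.16 in R 4.3.3 on the counts as deposited: low genes removed with filterByExpr (at least 10 counts, total at least 15, genotype as group), TMM scaling, quasi-likelihood dispersion over all 9 libraries and Benjamini-Hochberg adjustment over 20103 genes at 0.05. SE were derived from the F statistics. CPM are counts scaled by library size and TMM factor. Estimated counts were rounded for diffSpliceDGE. Alternatives used DESeq2 1.42.0, limma 3.58.1 on log2(FPKM + 1) and log2(FPKM + 0.1), other filters, scaling and libraries, and a replicate block. Counting error is the floor of precision at this depth.

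The members, gene lists and naming rule were chosen with earlier results of these data known. Named were members that passed, 4 heat members, the 8 highest by FPKM, the 2 largest differences per comparison that did not pass, up to 4 passing genes per other list and, for usage, the 2 smallest p. WRKY22, WRKY46, WRKY56 and WRKY70, the retained intron of WRKY39, and members named only as values beside a count were added after their values were seen. WRKY groups come from a list written from general knowledge; the annotation notes differ for WRKY23 and WRKY45, which they place in group I. Motifs and codons were searched with Python 3.11.15, and figures drawn with matplotlib 3.10.9.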

Additional observations from a re-analysis of the deposited data

How the results depend on the processing

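The count of members that passed in SR45a-1a-OE against WT, 5, became 8 with DESeq2, 1 with an added log2 fold change of at least 1, 11 without SR45a-1a-OE replicate 3 and sr45a replicate 3, and 1 to 9 when 1 library was left out (1 without WT replicate 1 or SR45a-1a-OE replicate 1, 3 without WT replicate 2 or 3 or SR45a-1a-OE replicate 2, 9 without SR45a-1a-OE replicate 3). In SR45a-1a-OE against sr45a the count of 7 became 2 with only the 6 libraries compared, 3 with limma on log2(FPKM + 1) without a filter, 3 with the fold threshold, 17 without the 2 libraries that stood apart, and 2 to 11 when 1 library was left out (2 without SR45a-1a-OE replicate 1 or 2 or sr45a replicate 1 or 2, 3 and 4 without WT replicate 2 and 3, 11 without SR45a-1a-OE replicate 3). In sr45a against WT the count of 0 became 1 with DESeq2 and 1 without those 2 libraries, and stayed 0 without any single library. Usage gave 1 member with limma diffSplice in each comparison with WT and 0 under the other alternatives run. Without the 2 libraries that stood apart, the share of all genes that passed moved too. It went from 15.3% to 22.3% in SR45a-1a-OE against WT and from 7.26% to 20.5% in SR45a-1a-OE against sr45a. In sr45a against WT it went from 1.62% to 1.8%. For the other alternatives the counts of members stand here without the share of all genes, so they are no result about the family. The cause of these shifts was not tested. Of the 12 calls, those of WRKY72 in both comparisons and of WRKY29 against sr45a held under all 19 alternatives other than the fold threshold; WRKY45 lost its call in 12 of 19 and WRKY38 in 11.

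The replicate block gave 5, 0 and 3 members in SR45a-1a-OE against WT, sr45a against WT and SR45a-1a-OE against sr45a. Under it WRKY23 lost its call against WT (adjusted p = 0.0633) and WRKY22 gained one (0.0315), and WRKY45, WRKY24, WRKY38 and WRKY57 lost theirs against sr45a (0.0595 to 0.0927). Same-numbered libraries correlated between −0.409 and 0.238 in their deviations from the group means, and differently numbered ones between −0.356 and 0.416. Deviations from a mean of 3 libraries depend on each other, so these values cannot decide whether the numbers pair libraries. The labels do not say either.

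Signs changed in 51 cases. In each the member passed in that comparison neither in the main edgeR fit nor after the change (adjusted p of 0.434 or more after it). Of the members whose sign changed, WRKY72, WRKY24 and WRKY38 passed in other comparisons of the main fit. WRKY33 passed in SR45a-1a-OE against WT with its original sign in edgeR without the 2 libraries that stood apart (−0.39, adjusted p = 0.0482). On the log2 scale, the ranges when 1 library was left out of SR45a-1a-OE against WT were −0.18 to 0.21 for WRKY24, −0.12 to 0.17 for WRKY15, −0.32 to 0.22 for WRKY38, −0.24 to 0.17 for WRKY11, −0.0565 to 0.00216 for WRKY65, −0.39 to 0.0622 for WRKY33, −0.15 to 0.00904 for WRKY39 and −0.12 to 1.44 for WRKY53. In sr45a against WT they were −0.033 to 0.12 for WRKY39, −0.0762 to 0.22 for WRKY72, −0.0803 to 0.00545 for WRKY65, −0.006004 to 0.14 for WRKY11, −0.0436 to 0.23 for WRKY33 and −0.0725 to 0.0738 for WRKY32. In SR45a-1a-OE against sr45a they were −0.0692 to 0.14 for WRKY25, −0.0262 to 0.0599 for WRKY65, −0.30 to 0.10 for WRKY11, −2.28 to 0.72 for WRKY40, −0.28 to 0.00235 for WRKY15 and −0.10 to 0.28 for WRKY26. With limma on log2(FPKM + 1), with and without the filter, WRKY24 had −0.0251 and WRKY15 −0.00653 in SR45a-1a-OE against WT, and WRKY25 −0.0271 and WRKY65 −0.0439 in SR45a-1a-OE against sr45a. With log2(FPKM + 0.1) these were −0.0332, −0.0072, −0.0283 and −0.0462. Without the 2 libraries that stood apart, SR45a-1a-OE against WT gave −0.12 for WRKY15, 0.00934 for WRKY39 and −0.12 for WRKY53, and sr45a against WT gave −0.0434 for WRKY33 and −0.0723 for WRKY32.

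With 3 libraries per genotype, members under 1 CPM carry few counts. No group has the 4 libraries that a check for single outlying libraries needs.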
